A study of Capra aegagrus with 10 samples.

Results

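Of the 1034 small RNAs that the table lists as predicted miRNAs, 56 were abundant, and their levels were followed over 10 small RNA libraries from mammary gland cells of the Lanshan dairy goat. A predicted miRNA was counted as abundant when it had at least 50 reads per 1000000 miRNA reads (CPM) in 2 or more libraries, where the miRNA reads are those on all 369 known and 1034 predicted miRNAs. The table has 2233 small RNA identifiers in all. The 56 were chosen by these CPM values, so their abundance is given as a description and is not tested. The cells were grown in 3D culture. The groups are Blank, Lv5NC, OV55666 (a virus that overexpresses the long noncoding RNA lncRNA55666), Lv3NC and KD553 (a virus that lowers lncRNA55666), with 2 libraries in each of the 5. The labels do not spell out the others: Blank is taken as cells without virus, and Lv5NC and Lv3NC as the control viruses of overexpression and knockdown, from their names and their place in the study's list of groups. The labels give no culture or animal for a library, so p-values here measure only the spread between these libraries, which may be technical.

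A miRNA is cut from a hairpin precursor by the nucleases Drosha and Dicer, and a strand of the resulting duplex is loaded into Argonaute to repress mRNAs through its seed. Small RNA pipelines predict further miRNAs where stacked reads lie on a sequence that could fold into such a hairpin. Predicted names are provisional, and stacks of reads from other RNAs can meet the same criteria. The names used here carry only a running number. Sequences, precursors and genome positions of the predicted miRNAs were not analysed here, so no target, family or locus is given for any of them, and 2 names may stand for overlapping sequences.

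The libraries held 3108495 to 8739602 miRNA reads, so that the limit of 50 CPM stood for 155 to 437 reads. CPM counts reads with no length term, and levels of different miRNAs are compared only as shares of reads. In bulk libraries fewer cells of a type and less RNA per cell cannot be told apart. Markers of mammary epithelium were scarce. The 8 epithelial miRNAs found by name (the miR-200 family and the miR-183, miR-96 and miR-182 cluster) summed to 8.46 to 73.7 CPM, and 2 of them were at 0 in at least 1 library. The 9 stromal and smooth muscle miRNAs summed to 9868 to 27109 CPM. Libraries also differed in the other reads listed. Reads on RF identifiers held from 4.81% of listed reads in Lv5NC replicate 1 to 26.3% in KD553 replicate 2, and reads on introns held from 10.3% in KD553 replicate 2 to 18.5% in Lv5NC replicate 1. Both libraries stand at the ends of several results below.

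The 56 abundant predicted miRNAs held 11.8% and 7.57% of the miRNA reads in the Blank libraries. They held 22.8% and 12.2% in Lv5NC, 11.0% and 9.55% in OV55666, 9.81% and 6.43% in Lv3NC, and 6.52% and 4.33% in KD553. Lv5NC replicate 1 was thus the highest of the libraries and KD553 replicate 2 the lowest, and both Lv5NC libraries lay above every library of the other groups. That order rested on 3 names. Without novel_mir672, novel_mir1121 and novel_mir1174 the rest held 7.27% and 6.28% in Lv5NC, against 7.89% and 7.05% in OV55666, 6.91% in Lv3NC replicate 1 and 6.59% in Blank replicate 2, so that Lv5NC overlapped the other groups. The Lv3NC and KD553 libraries overlapped. As a share of all listed reads the same miRNAs held 0.703% in KD553 replicate 2 and 1.66% in KD553 replicate 1, against 2.02% to 3.70% in the other libraries, and Lv5NC replicate 2 (3.15%) lay below Blank replicate 2 (3.37%). All other predicted names together held 0.0716% to 0.394% of the miRNA reads. Nearly all reads on predicted miRNAs, 97.3% to 98.7% per library, therefore lay on these 56.

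**Figure D1:**
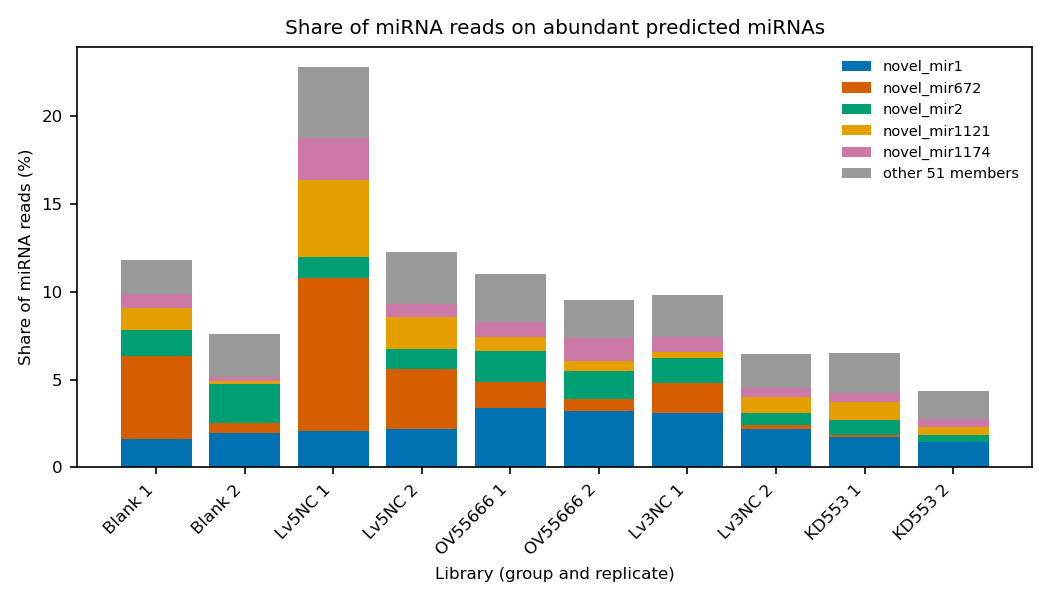
Stacked bars give the share of miRNA reads (%) on the 56 abundant predicted miRNAs in each of the 10 libraries, split into the 5 with the highest mean CPM and the other 51. The bars run from 4.33% in KD553 replicate 2 to 22.8% in Lv5NC replicate 1, and the segment that varies most between libraries is novel_mir672.

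The reads were concentrated on a few names. The 5 most abundant held 63.8% to 83.4% of the reads on the 56, and the 10 most abundant 88.3% to 92.2%. Among all 1403 known and predicted miRNAs ranked by mean CPM, novel_mir1 stood at place 10, novel_mir672 at 11, novel_mir2 at 19, novel_mir1121 at 21 and novel_mir1174 at 25. In all, 21 of the 56 stood among the first 100. At the other end, novel_mir417 stood at place 215.

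novel_mir1 was the predicted miRNA with the highest mean, at 22812 ± 7070 CPM (SD, n = 10 libraries). It stood at 15897 and 19482 CPM in Blank, 20521 and 21994 in Lv5NC, 33915 and 32279 in OV55666, 30887 and 21772 in Lv3NC, and 17133 and 14237 in KD553. The OV55666 libraries were the highest and lay apart from those of the other groups, while Blank and KD553 overlapped at the low end. Its highest library held 2.38 times its lowest, the narrowest range among the 10 most abundant.

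novel_mir672 had nearly the same mean, 21700 ± 27850 CPM, with an entirely different spread. It stood at 47705 and 6044 CPM in Blank, 87546 and 34082 in Lv5NC, 14700 and 6458 in OV55666, 16943 and 2206 in Lv3NC, and 1040 and 271 in KD553. The KD553 libraries were the lowest of the 10, the Lv5NC libraries were above both OV55666 libraries, and Blank and Lv3NC each spanned several-fold between their own replicates. The highest library held 323 times the lowest. No other of the 56 reached the level of its highest library in any library.

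novel_mir2 stood at 14651 and 22089 CPM in Blank, 11960 and 11376 in Lv5NC, 17639 and 16321 in OV55666, 14616 and 6732 in Lv3NC, and 8725 and 3824 in KD553. Both OV55666 libraries were above both Lv5NC libraries, and Lv3NC and KD553 overlapped.

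novel_mir1121 stood at 12682 and 1528 CPM in Blank, 43436 and 17892 in Lv5NC, 7836 and 5293 in OV55666, 3512 and 9125 in Lv3NC, and 10581 and 4601 in KD553. The Lv5NC libraries were the highest, and the other groups overlapped each other. novel_mir1174 stood at 7725 and 2289 CPM in Blank, 24384 and 7654 in Lv5NC, 8703 and 13245 in OV55666, 8506 and 5080 in Lv3NC, and 4750 and 4691 in KD553. The high value was that of Lv5NC replicate 1 alone, since Lv5NC replicate 2 lay below both OV55666 libraries.

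The next 5 by mean level ran from 4184 CPM down to 1199 CPM. novel_mir4 stood at 2564 and 4299 CPM in Blank, 5942 and 3889 in Lv5NC, 1958 and 3017 in OV55666, 3113 and 4179 in Lv3NC, and 7074 and 5803 in KD553. The order was thus unlike that of novel_mir672, with the highest group mean in KD553 and the lowest in OV55666, although OV55666 overlapped Blank and KD553 overlapped Lv5NC. novel_mir3 ranged from 1603 CPM in Blank replicate 1 to 5165 CPM in OV55666 replicate 2. novel_mir120 ranged from 748 to 6893 CPM, novel_mir5 from 819 to 4700 CPM and novel_mir662 from 307 to 2455 CPM. Each of these last 3 was lowest in KD553 replicate 2 and highest in Lv5NC replicate 1.

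**Figure D2:**
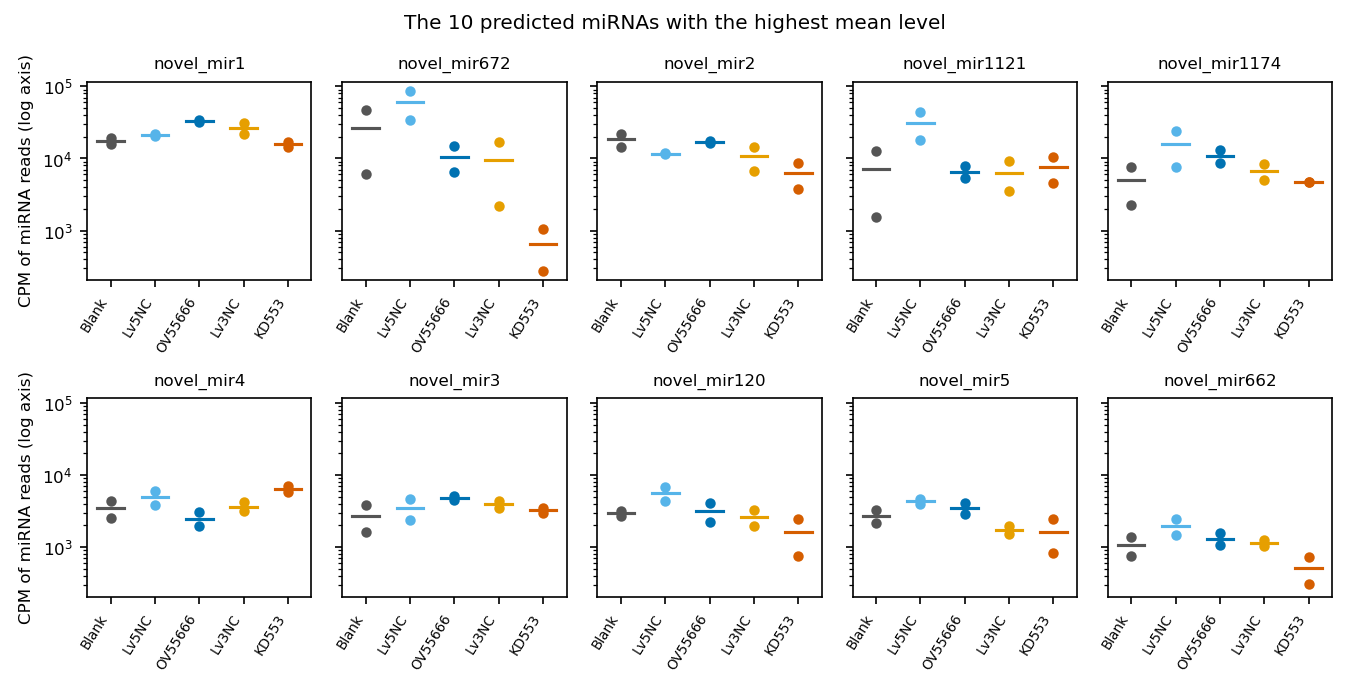
Each panel shows 1 of the 10 abundant predicted miRNAs with the highest mean, with CPM of miRNA reads on a log axis, a point for each library and a line for the mean of the 2 libraries of a group. novel_mir1 varied 2.38-fold over the 10 libraries, while novel_mir672 varied 323-fold and was lowest in both KD553 libraries.

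The 56 differed widely in how steady they were. The highest library held under 3 times the lowest for 9 of them, 3 to 10 times for 20 and over 10 times for 16, and the other 11 had a library with no read. The steadiest was novel_mir10, at 412 to 693 CPM (a ratio of 1.68). novel_mir21 (97.0 to 188 CPM, 1.94), novel_mir962 (48.7 to 106 CPM, 2.17) and novel_mir22 (94.4 to 207 CPM, 2.19) followed, then novel_mir8 (639 to 1443 CPM, 2.26). The median SD of log2(CPM + 1) over the 10 libraries was 0.96 for the 56, 1.28 for the 170 other predicted miRNAs with at least 5 CPM in 2 or more libraries, and 0.62 for the known miRNAs that meet the same 50 CPM limit as the 56. Some known miRNAs were more variable than any of the 56, up to an SD of 6.08 against 3.11.

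**Figure D3:**
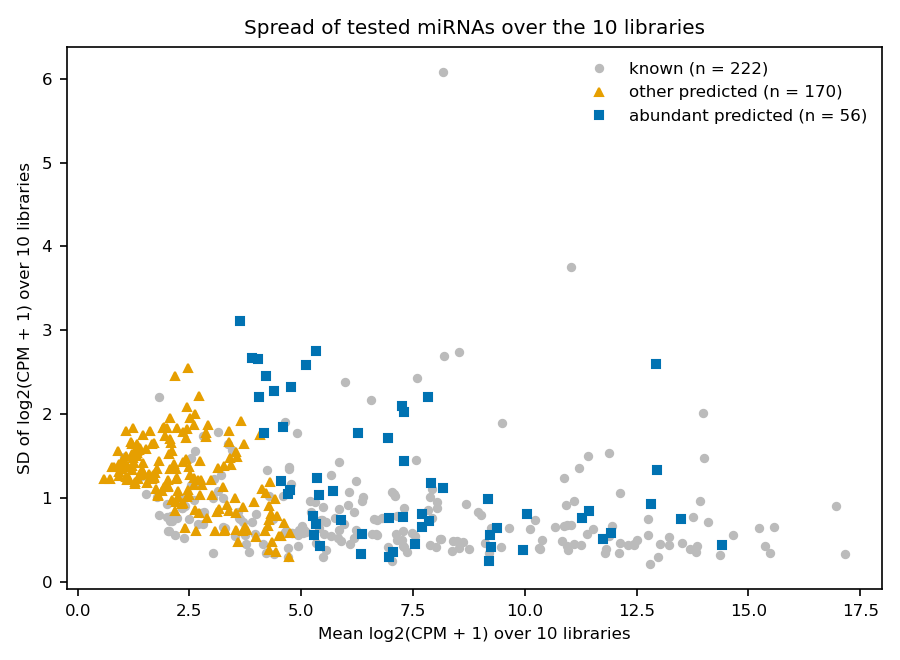
Each point is a miRNA, with the mean of log2(CPM + 1) over the 10 libraries on the horizontal axis and the SD over the same libraries on the vertical axis, for 222 known, 170 other predicted and 56 abundant predicted miRNAs. The abundant predicted miRNAs run from an SD of 0.25 (novel_mir10) to 3.11 (novel_mir709), and novel_mir672 is the only one of them with a mean above 10 and an SD above 2.

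The extremes fell in the same libraries. Of the 56, 31 were highest in Lv5NC replicate 1 and 30 were lowest in KD553 replicate 2. The next most frequent were Blank replicate 2 for the highest value (5) and Lv3NC replicate 2 for the lowest (11). A tie at 0 reads was counted for the library listed first, and KD553 replicate 2 was listed last. Among the 11, novel_mir709, novel_mir231, novel_mir1205 and novel_mir884 were also at 0 in KD553 replicate 2. Among the 170 other tested predicted miRNAs 71 were highest in Lv5NC replicate 1 and 21 lowest in KD553 replicate 2, and among the 222 tested known miRNAs 14 and 40. Ties at 0 can make the counts of lowest values too low for KD553 replicate 2, so these are not compared between the lists. Lv5NC replicate 1 and KD553 replicate 2 also had the lowest and the highest RF share, and Lv5NC replicate 1 had the fewest miRNA reads. The part of RF share or depth in these extremes was not tested. Entry to the 56 needed 50 CPM in 2 libraries, which favours names that are high in some library. Of the 56, 52 reached 50 CPM in Lv5NC replicate 1 and 27 in KD553 replicate 2, so the counts over the 56 are a description.

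Names with a low running number were mostly steadier than the others. All names from novel_mir1 to novel_mir24 were among the 56, and across these 24 the number followed the mean level downwards (Spearman rho -0.95 across names, which are not independent replicates). With novel_mir26, novel_mir28 and novel_mir30, 27 of the 56 had a number of at most 30. Their median SD of log2(CPM + 1) was 0.73, and each had reads in every library. The other 29 had numbers from 120 to 1338, a median SD of 1.71, and all 11 names with a library at 0. Those 11 had mean levels of only 26.7 to 120 CPM. The part of level, or of entry to the 56 through a single group, in this contrast was not tested. The split at 30 was chosen after the values were seen. Exceptions stood on both sides, since novel_mir7 and novel_mir14 varied 85.0-fold and 77.3-fold, and novel_mir962 only 2.17-fold.

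**Figure D4:**
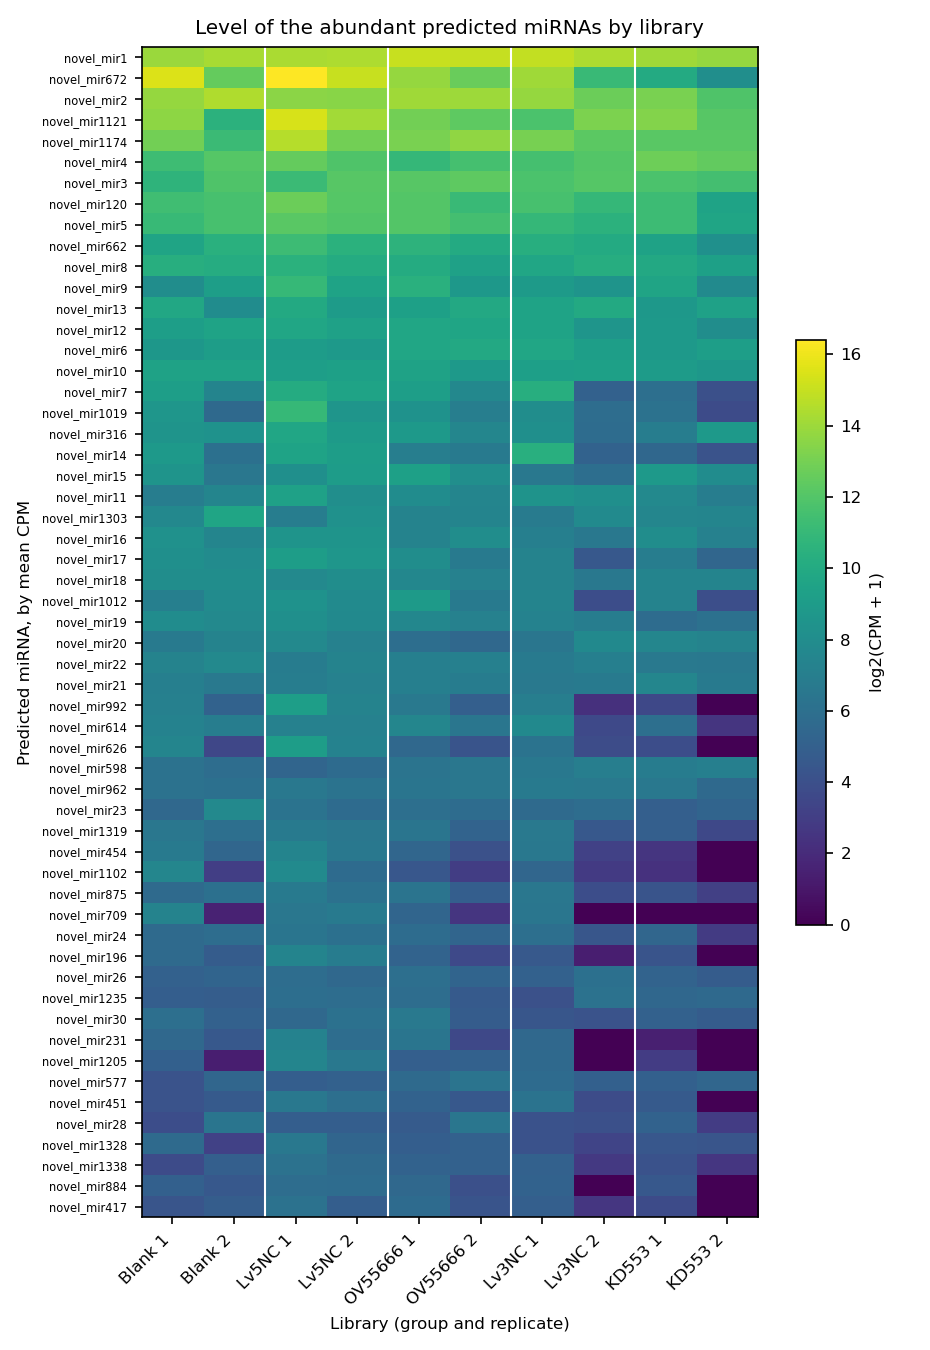
Rows are the 56 abundant predicted miRNAs in order of mean CPM, columns are the 10 libraries, and colour gives log2(CPM + 1). The darkest cells, at 0 reads, lie in KD553 replicate 2 (11 names), Lv3NC replicate 2 (4) and KD553 replicate 1 (1).

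Reads were missing only from knockdown-side libraries. Of the 560 values of the 56 names, 16 were 0, of which 11 lay in KD553 replicate 2, 4 in Lv3NC replicate 2 and 1 in KD553 replicate 1. A count of 0 allows up to 0.757 CPM in KD553 replicate 2 (3 reads, counting error only). The totals behind the deposited TPM columns of the KD553 libraries held 0 reads beyond the listed small RNAs. That of OV55666 replicate 1, where none of the 56 was at 0, held 1 such read. The other libraries with an assigned TPM column held 15214 to 59484, and the Lv3NC libraries had none assigned. novel_mir709 was the only one of the 56 with 0 reads in both libraries of a group and at least 50 CPM in both libraries of another. It stood at 158 and 1.95 CPM in Blank, 89.1 and 106 in Lv5NC, 39.1 and 4.72 in OV55666, 86.4 and 0 in Lv3NC. Both KD553 libraries had 0 reads. Blank and Lv3NC each had 1 high and 1 low library, and Lv3NC overlapped KD553 at 0. Its log2 fold change for KD553 against Lv3NC was -3.36 (SE 2.30, limma adjusted p = 0.656).

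Many of the unsteady names varied together over the libraries. Over the 10 libraries, which share depth and composition, the miRNAs most like novel_mir672 by Pearson r of log2(CPM + 1) were novel_mir454 (0.97), novel_mir35 (0.97), a predicted miRNA below the 50 CPM limit, and novel_mir992 (0.97). Of the other 55 abundant predicted miRNAs, 21 had an r of at least 0.8 with novel_mir672. So had 41 of the 170 other predicted and 16 of the 222 known miRNAs. The median r was 0.66 over the 55, 0.50 over the 170 and 0.01 over the 222. novel_mir454 held 102 and 41.3 CPM in Blank, 165 and 92.5 in Lv5NC, 41.5 and 15.6 in OV55666, 92.8 and 8.05 in Lv3NC, and 4.76 and 0 in KD553. As for novel_mir672, both KD553 libraries were the lowest and Lv5NC replicate 1 was the highest.

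The steady novel_mir1 had other neighbours. Most like it was the known let-7b-3p, the passenger strand of let-7b (r = 0.94), then novel_mir452 (0.88) and novel_mir226 (0.87), both below the 50 CPM limit. novel_mir2 was most like the known miR-455-3p (0.93), which is studied in cartilage, then novel_mir251 and novel_mir12. The nearest to novel_mir1121 were novel_mir247 (0.82), novel_mir998 and novel_mir25 (each 0.81), and those to novel_mir1174 were novel_mir1244 (0.88), novel_mir1328 (0.84) and novel_mir450 (0.82). Within the 56, r ran from -0.88 to 0.98 over 1540 pairs, with 92 pairs at 0.9 or more and 366 below 0. novel_mir598, which was highest in KD553 replicate 2 and lowest in Lv5NC replicate 1, had an r of -0.83 with novel_mir672.

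OV55666 was set against Lv5NC to see how these names stand when lncRNA55666 is raised. The lncRNA itself was not analysed here, so neither virus is checked against its target. Of the 56, 39 had lower and 17 higher values in OV55666 (median log2 fold change -0.48, against -0.08 over all 448 miRNAs tested and -0.59 over the 170 other predicted ones), and none passed an adjusted p of 0.05 in limma. Over all tested miRNAs 1 passed (0.223%), a known miRNA. At an unadjusted p under 0.05 there were 4 of the 56 (3 higher and 1 lower), where 9.82% of all tested miRNAs had such a p (3.57% higher and 6.25% lower). The libraries of the groups did not overlap for 34 of the 56 (5 higher and 29 lower), where this held for 47.8% of all tested miRNAs (14.7% higher and 33% lower). Some names, novel_mir196, novel_mir884, novel_mir1205 and novel_mir1338, reached 50 CPM only in the Lv5NC libraries. Names could thus enter the 56 through high values in the control compared here, so these splits support no difference.

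The smallest p among the 56 in this comparison was that of novel_mir20. It stood at 215 and 148 CPM in Lv5NC and at 60.0 and 46.6 CPM in OV55666, against 108 and 163 CPM in Blank. Both OV55666 libraries were the lowest of all 10, and the log2 fold change was -1.55 (SE 0.52, adjusted p = 0.354). novel_mir6 stood at 530 and 467 CPM in Lv5NC and at 842 and 964 CPM in OV55666. Both OV55666 libraries were above both Lv5NC libraries, and the difference was 1.04 on the log2 scale (SE 0.42, adjusted p = 0.475). For novel_mir1 it was 0.82 (SE 0.35, adjusted p = 0.475), from values that did not overlap. Without Lv5NC replicate 2 these became -2.21 for novel_mir20, 0.55 for novel_mir6 and 0.48 for novel_mir1, and that of novel_mir20 was -1.29 without Lv5NC replicate 1.

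novel_mir598 stood at 39.2 and 53.1 CPM in Lv5NC and at 80.2 and 88.2 CPM in OV55666, a difference of 1.05 on the log2 scale (adjusted p = 0.475). The Lv5NC libraries were its lowest 2, and its KD553 libraries, at 117 and 137 CPM, were above both OV55666 libraries. The other names among the 10 with the smallest p were novel_mir577 (1.15), novel_mir4 (-0.80), novel_mir1121 (-1.93), novel_mir672 (-2.30), novel_mir1102 (-2.92) and novel_mir626 (-3.10), with adjusted p of 0.567 to 0.601. The SE of novel_mir672 was 1.25 and that of novel_mir626 1.67, so these large fold changes had wide errors. For the 56 the median log2 fold change was -0.29 without Lv5NC replicate 1, -1.12 without Lv5NC replicate 2, -0.73 without OV55666 replicate 1 and -0.20 without OV55666 replicate 2. Scaled to the miRNA total without TMM factors, 45 were lower and 11 higher. The RF share was 4.81% and 7.72% in Lv5NC and 11.97% and 13.7% in OV55666, with no overlap, and with it as a covariate the median was 0.22, the opposite direction. The 9 stromal miRNAs, none of them at 0 in any library, summed to 21206 and 27109 CPM in Lv5NC and to 16711 and 13718 CPM in OV55666, and their part in the result was not tested.

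KD553 was set against Lv3NC to see the same when lncRNA55666 is lowered. Of the 56, 41 had lower and 15 higher values in KD553 (median log2 fold change -0.57, against -0.18 over all tested miRNAs and -0.80 over the 170 other predicted ones), and limma called 0 of the 56 and 0 of the 448 (0%). At an unadjusted p under 0.05 there were 5 of the 56 (1 higher and 4 lower), where 8.04% of all tested miRNAs had such a p (4.46% higher and 3.57% lower). The groups did not overlap for 20 of the 56 (6 higher and 14 lower), where 31.7% of all tested miRNAs did not (16.3% higher and 15.4% lower). Of the 56, 43 and 32 reached 50 CPM in the Lv3NC libraries and 33 and 27 in the KD553 libraries. Names could thus enter the 56 through high values outside KD553, so these splits support no difference.

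novel_mir15 had the smallest p. It stood at 92.6 and 59.6 CPM in Lv3NC and at 443 and 255 CPM in KD553, and the log2 fold change was 2.16 (SE 0.73, adjusted p = 0.524). Blank (357 and 88.1 CPM), Lv5NC (291 and 533) and OV55666 (657 and 279) overlapped KD553, and the Lv3NC libraries lay with Blank replicate 2 at the low end.

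novel_mir454, whose values are given above, had a difference of -3.72 on the log2 scale (SE 1.24, adjusted p = 0.524) and novel_mir672 of -3.53 (SE 1.25, adjusted p = 0.524). Both KD553 libraries were below both Lv3NC libraries for each of them, and below all libraries of the other groups. The size rested on single libraries, since without Lv3NC replicate 1 the values were -1.98 for novel_mir454 and -1.999 for novel_mir672, and without Lv3NC replicate 2 they were -5.65 and -5.42. novel_mir19 stood at 154 and 124 CPM in Lv3NC and at 56.1 and 68.6 CPM in KD553, the lowest 2 of the 10 libraries (-1.15, SE 0.42, adjusted p = 0.524). novel_mir662 stood at 1266 and 1038 CPM in Lv3NC and at 717 and 307 CPM in KD553 (-1.29, SE 0.53, adjusted p = 0.527).

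The next by p were novel_mir1 (-0.73), novel_mir451 (-2.85), novel_mir626 (-3.20), novel_mir1102 (-3.04) and novel_mir14 (-2.93), with adjusted p of 0.621 to 0.642. For novel_mir14 the 2 Lv3NC libraries held 1326 and 34.3 CPM, and for novel_mir451 the KD553 libraries held 23.6 and 0 CPM, so the libraries of these groups differed widely among themselves. Without KD553 replicate 1 novel_mir451 passed (-5.29, adjusted p = 0.0199), but the remaining KD553 library held 0 reads of it and the fold then depends on the pseudocount. When counts were scaled to all listed reads in place of miRNA reads, novel_mir672 (-4.10, adjusted p = 0.00108) and novel_mir454 (-3.86, adjusted p = 0.0180) passed. That fit pooled the spread over miRNAs far more strongly, with a median of 2240 total degrees of freedom in place of 9.17.

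The median over the 56 depended on single libraries. Leaving out Lv3NC replicate 1 gave -0.19, Lv3NC replicate 2 gave -1.46, KD553 replicate 1 gave -1.03 and KD553 replicate 2 gave -0.12. The RF share was 11.2% and 16.0% in Lv3NC and 16.2% and 26.3% in KD553, with no overlap, and a covariate for it gave a median of 0.05. Scaled to all listed reads, 50 were lower and 6 higher, with a median of -1.10 against -0.66 over all tested miRNAs. Summed blood cell markers stood at 517 and 1835 CPM in the KD553 libraries and at 902 and 161 CPM in the Lv3NC libraries, with 6 miRNAs found by name of which 3 were at 0 in at least 1 library. Their part in the result was not tested.

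**Figure D5:**
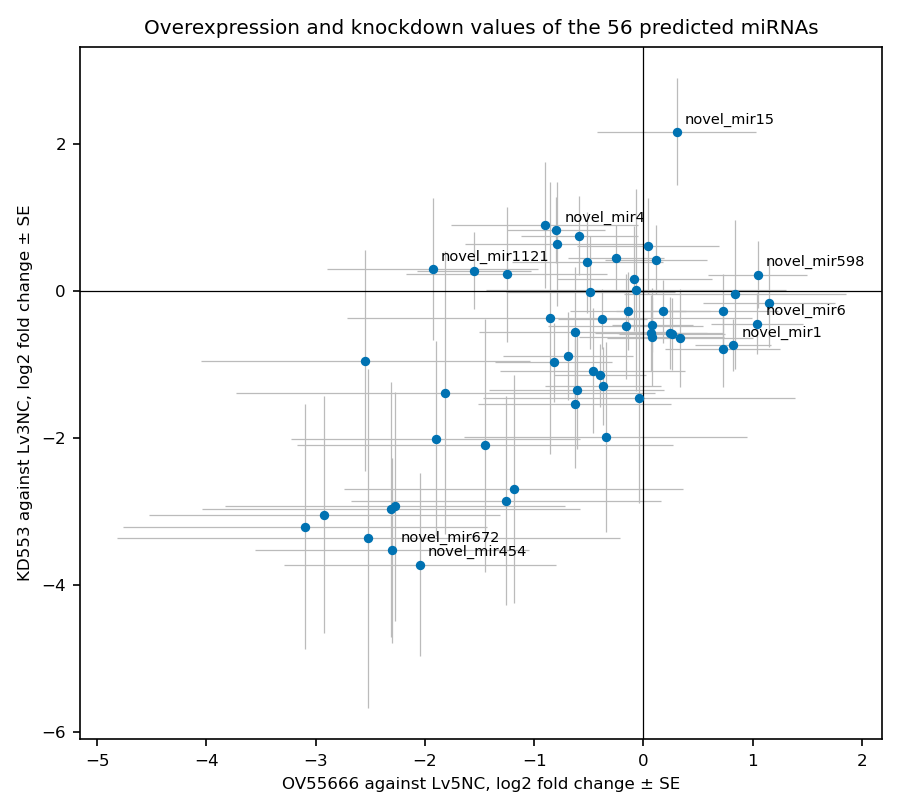
Each point is 1 of the 56 abundant predicted miRNAs, with the log2 fold change ± SE of OV55666 against Lv5NC on the horizontal axis and of KD553 against Lv3NC on the vertical axis. None passed the threshold in either comparison, and novel_mir672 and novel_mir454 had lower values with both viruses, while novel_mir1 and novel_mir6 had higher values with overexpression and lower values with knockdown.

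Each control virus was also compared with Blank, to show what a virus without the lncRNA55666 change does to these names. The comparisons share their libraries with those above, so the values are set side by side only. In Lv5NC, 47 of the 56 had higher and 9 lower values than in Blank (median log2 fold change 0.60, against 0.13 over all tested miRNAs and 0.73 over the 170 other predicted ones). Names could enter the 56 through high values in Lv5NC itself, so this split supports no difference. limma called 0 of the 56 and 0 of the 448 (0%), with 3 of the 56, all higher, at an unadjusted p under 0.05, where 7.59% of all tested miRNAs had such a p (4.24% higher and 3.35% lower). The groups did not overlap for 30 of the 56 (26 higher and 4 lower), where 46.9% of all tested miRNAs did not (28.6% higher and 18.3% lower).

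novel_mir11 had the smallest p, with 122 and 180 CPM in Blank and 668 and 271 CPM in Lv5NC (log2 fold change 1.46, SE 0.54, adjusted p = 0.564). novel_mir1121 followed at 2.60 (SE 0.97, adjusted p = 0.564) and novel_mir1174 at 1.64 (SE 0.71, adjusted p = 0.617). Without Blank replicate 2 novel_mir1121 was at 1.05 and novel_mir1174 at 0.74, while novel_mir1121 was at 4.44 without Blank replicate 1 and novel_mir1174 at 2.88 without Lv5NC replicate 2. novel_mir11 ran from 0.82 without Lv5NC replicate 1 to 2.51 without Lv5NC replicate 2. The other 7 with the smallest p were novel_mir9, novel_mir1019, novel_mir1205, novel_mir1328, novel_mir1338, novel_mir626 and novel_mir662, with log2 fold changes from 0.82 to 3.73 and adjusted p of 0.658 to 0.684. Of these, novel_mir1205 (3.73) and novel_mir1338 reached 50 CPM only in the Lv5NC libraries and so were chosen by the values compared, and their fold changes are a description. novel_mir1328 was at 0.20 without Blank replicate 2 and at 3.04 without Blank replicate 1. novel_mir1019 stood at 388 and 48.5 CPM in Blank and 2025 and 374 CPM in Lv5NC, so that the groups overlapped. Over the 56 the median was 1.20 without Lv5NC replicate 2, and 0.97 without Blank replicate 1. The RF share was 15.4% and 10.7% in Blank, above both Lv5NC libraries, and with it as a covariate the median was -0.10. The blood cell markers summed to 261 and 393 CPM in Blank and to 1058 and 648 CPM in Lv5NC, with no overlap, and their part in the result was not tested. With all listed reads as the scale 33 were higher and 23 lower (median 0.12).

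In Lv3NC, 24 of the 56 had higher and 32 lower values than in Blank (median -0.21, against -0.17 over all tested miRNAs). Over the 170 other predicted ones the median was 0.15, with 95 higher and 74 lower. None of the 56 and 1 of the 448 (0.223%) passed in limma, with 3 of the 56, all higher, at an unadjusted p under 0.05, where 5.58% of all tested miRNAs had such a p (3.12% higher and 2.46% lower). The groups did not overlap for 16 of the 56 (5 higher and 11 lower), where 39.3% of all tested miRNAs did not (7.14% higher and 32.1% lower).

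novel_mir11 again had the smallest p, with 343 and 290 CPM in Lv3NC against the Blank values above (log2 fold change 1.46, SE 0.54, adjusted p = 0.793). novel_mir1 was at 0.94 (SE 0.35), novel_mir598 at 1.12 (SE 0.46) and novel_mir6 at 0.94 (SE 0.42), each with an adjusted p of 0.793. The other 6 with the smallest p were novel_mir3, novel_mir962, novel_mir17, novel_mir13, novel_mir18 and novel_mir577, from -1.73 for novel_mir17 to 1.19 for novel_mir13. When Lv3NC replicate 1 was left out the median over the 56 was -0.78, without Lv3NC replicate 2 it was 0.80 and without Blank replicate 1 it was 0.20, so the direction of the median turned with a single library. The stromal miRNAs summed to 23074 and 23084 CPM in Blank and to 12830 and 9868 CPM in Lv3NC, with no overlap, and their part in the result was not tested. The median was 0.01 when scaled to the known miRNA reads, and 38 were lower and 18 higher when scaled to all listed reads.

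The difference between the overexpression and the knockdown effect asked whether a name follows lncRNA55666 in opposite ways when it is raised and lowered. None of the 56 and 1 of the 448 (0.223%) passed in limma, with 4 of the 56 at an unadjusted p under 0.05 (2 above 0 and 2 below), where 6.25% of all tested miRNAs had such a p (3.12% on either side). novel_mir1 had the smallest p of the 56, with a difference of 1.56 on the log2 scale (SE 0.49, adjusted p = 0.750). novel_mir4 (-1.63, SE 0.63), novel_mir6 (1.48, SE 0.59) and novel_mir20 (-1.83, SE 0.74) followed with the same adjusted p. novel_mir2 (1.51), novel_mir15 (-1.86), novel_mir16 (-1.34), novel_mir1121 (-2.23), novel_mir577 (1.31) and novel_mir316 (-1.80) complete the 10 with the smallest p. Both virus comparisons had groups that did not overlap for 11 of the 56, of which 6 stood in opposite directions and 5 in the same direction (novel_mir672, novel_mir11, novel_mir19, novel_mir454 and novel_mir1102). Over all tested miRNAs 7.37% stood apart in opposite directions and 6.03% in the same direction.

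When all 5 groups were compared at once with the moderated F test, none of the 56 and 1 of the 448 (0.223%) passed, with 8 of the 56 at an unadjusted p under 0.05 where 9.38% of all tested miRNAs had such a p. With the replicate number as a block, 3 of the 56 passed, novel_mir672 (adjusted p = 0.00759), novel_mir1019 and novel_mir454 (adjusted p = 0.0477 each). The smallest p belonged to novel_mir672, novel_mir598, novel_mir454, novel_mir19, novel_mir20, novel_mir4, novel_mir1, novel_mir15, novel_mir992 and novel_mir626, all with an adjusted p of 0.477. novel_mir992 stood at 140 and 35.2 CPM in Blank, 596 and 162 in Lv5NC, 97.4 and 30.2 in OV55666, 130 and 3.78 in Lv3NC, and 10.8 and 0 in KD553. With all listed reads as the scale 11 of the 56 passed in that F test, and these were novel_mir672, novel_mir454, novel_mir626, novel_mir1102, novel_mir992, novel_mir1019, novel_mir231, novel_mir196, novel_mir14, novel_mir7 and novel_mir1205. Their adjusted p ran from 3.06e-11 to 0.0246, in the fit with a median of 2240 total degrees of freedom. Of these 11, novel_mir196 and novel_mir1205 reached 50 CPM only in the Lv5NC libraries and so were chosen by the values compared.

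By group mean, Lv5NC was the highest of the 5 groups for 35 of the 56 and KD553 the lowest for 36. OV55666 was the highest for 9, Blank for 6, and Lv3NC and KD553 for 3 each. The 3 with KD553 highest were novel_mir4, novel_mir21 and novel_mir598. Of the 56, 8 reached 50 CPM in exactly 2 libraries. These were both Lv5NC libraries for novel_mir196, novel_mir884, novel_mir1205 and novel_mir1338, and libraries of different groups for the others. Since a name could enter the 56 through a single group, the counts by group mean describe the names listed and support no difference between groups.

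The names at the edge of the 50 CPM limit differed little in level. By their second highest library, the 5 just inside were novel_mir1338 (50.1 CPM), novel_mir1328 (50.6), novel_mir577 (51.8), novel_mir417 (53.4) and novel_mir884 (53.7). The 5 just outside were novel_mir1151 (49.5 CPM), novel_mir837 (44.9), novel_mir27 (40.5), novel_mir25 (39.2) and novel_mir130 (38.7).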

How the data were processed

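Small RNA was sequenced from goat mammary gland cells in 10 libraries, 2 in each of 5 groups given by the labels. The authors deposited 1 table with a Count column and a TPM column per library. Per the file headers the counts are reads per small RNA identifier; every number is whole. 11323 of 22330 count cells (50.7%) hold a missing mark and were read as 0. The TPM values deposited by the authors are each count divided by a library total, with no length term, and served only to find reads beyond the listed identifiers. 2 TPM columns share the header of Lv3NC replicate 1 and were left out, as neither could be assigned. For the aligner, miRNA database, prediction tool and build, the sources used here name nothing.

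CPM here is scaled to the sum of known and predicted miRNA reads. miRNAs with at least 5 CPM in 2 or more libraries (448, among them all 56 described here) were tested on log2(CPM + 1) after TMM scaling computed in R 4.3.3 (30% and 5% trimming, factors 0.829 to 1.18). A pseudocount of 1 understates the fold changes of low miRNAs. 1 limma 3.58.1 fit (statmod 1.5.0, trend and robust moderation, 5 group means, 5 residual degrees of freedom) gave all comparisons, two-sided, with Benjamini-Hochberg adjustment over the 448 and a threshold of 0.05. The fit was checked on simulated data with independent noise for each miRNA and library. These data had no shift by RF share or replicate number, so the check does not cover such shifts. Named are the 10 with the highest mean, the 10 with the smallest p in each comparison, names absent from a group and abundant in another, the 5 names on either side of the limit, and the nearest miRNAs of the 5 most abundant. Others are named after their values were seen. Members and lists were chosen with earlier results of these data known. Alternatives changed the pseudocount, filter, scaling, libraries, replicate block and denominators. Intervals and floors cover counting error only.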

Additional observations from a re-analysis of the deposited data

Results flagged for a closer look

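6 of the 56 abundant predicted miRNAs stood on opposite sides of the control virus in the overexpression and the knockdown comparison, with no overlap between the groups in either, where 7.37% of all 448 tested miRNAs did so. A further 5 of the 56 stood apart in both in the same direction. The difference between the effects was tested by limma as an interaction over the same miRNAs, and it passed the threshold for none of the 6. On the log2 scale it was 1.558 for novel_mir1 (SE 0.494, adjusted p = 0.7497) and 1.484 for novel_mir6 (SE 0.5895, adjusted p = 0.7497), both higher with overexpression and lower with knockdown. It was -1.625 for novel_mir4 (SE 0.6318, adjusted p = 0.7497), -1.34 for novel_mir16 (SE 0.7595, adjusted p = 0.7497), -1.436 for novel_mir1328 (SE 1.193, adjusted p = 0.8533) and -0.7069 for novel_mir18 (SE 0.6184, adjusted p = 0.8647), which stood the other way round.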

How the results depend on the processing

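The 60 values of named predicted miRNAs in the 6 comparisons were recomputed under up to 21 alternatives, 1250 values in all. Every main value had a limma adjusted p of 0.354 or more, so staying on the same side of the threshold says little. A change in size alone was not counted. For novel_mir14 in KD553 against Lv3NC the fold ran from -5.96 to -0.25 with single libraries left out. The F test values have no direction, so only their side was compared. Direction and side of the threshold were kept in 1238, 10 newly passed the threshold, and 2 reversed with the RF share as a covariate, novel_mir451 in KD553 against Lv3NC (0.3134) and novel_mir662 in Lv5NC against Blank (-0.08223). The cause was not tested. That covariate, the scaling to known miRNA reads and the joint omission of Lv5NC replicate 1 and KD553 replicate 2 were chosen after seeing the data. With the covariate the median log2 fold change of the 56 was 0.2189 for OV55666 against Lv5NC, 0.04826 for KD553 against Lv3NC and -0.1025 for Lv5NC against Blank. With those 2 libraries left out the median difference between the overexpression and knockdown effects was -0.07885, in place of 0.50.

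Scaled to all listed reads, KD553 against Lv3NC gave 3 calls, of which 2 were among the 56, and a median of -1.099. Lv5NC against Blank gave 1 call, and the 5-group test 22 calls, of which 11 were among the 56. The same fit had a median of 2240 total degrees of freedom and the fit with no filter 147, in place of 9.17. With no filter there was 1 call in KD553 against Lv3NC, 2 in Lv3NC against Blank and 8 in the 5-group test, of which 1 (novel_mir454) was among the 56. With a pseudocount of 5 CPM the first and second of these comparisons gave 1 and 2 calls.

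Leaving out each library in turn moved the calls over all tested miRNAs from 1 to 3 in OV55666 against Lv5NC, 0 to 15 in KD553 against Lv3NC, 0 to 2 in Lv5NC against Blank, 1 to 3 in Lv3NC against Blank, 1 to 7 in the difference and 1 to 3 in the 5-group test. A group left with 1 library was assumed to vary like the others. The 15 and the 7 came without KD553 replicate 1. Among the 56 the calls ran from 0 to 1 in KD553 against Lv3NC and stayed at 0 elsewhere. Their medians ran from -1.12 to -0.1951, from -1.461 to -0.1207, from 0.4509 to 1.202, from -0.7831 to 0.7997 and, for the difference, from -0.3114 to 1.296.

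The deviations of same-numbered libraries had an r of -0.02 to 0.32 over all tested miRNAs (8 of 10 pairs of groups over 0.1) and of 0.18 to 0.57 over the 56 (10 of 10). The labels name no shared culture or batch and the first range does not pass 0.1 throughout, so the main design has no block, but for the 56 the numbers may pair the libraries. In every group replicate 1 had a higher share of miRNA reads on the 56 than replicate 2, and a higher CPM of novel_mir672. The main fit has no term for the replicate number, so such a shift counts there as spread within groups. The sample descriptions of KD553 give other column numbers than the titles, so the number of a KD553 library is uncertain. A replicate block gave 5 calls in the 5-group test, of which 3 (novel_mir672, novel_mir454 and novel_mir1019) were among the 56.

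As a share of all listed reads the mean of the 56 was 3.426% for Lv5NC, 2.867% for Blank, 2.589% for OV55666, 2.443% for Lv3NC and 1.181% for KD553. Without novel_mir1, the name with the highest mean CPM, the mean was 3.855% of the miRNA reads for KD553 and 5.488% for Lv3NC. It was 6.971% for OV55666, 7.936% for Blank and 15.395% for Lv5NC. With 2 libraries a group and a median SE of 0.72 (log2), small differences were not detectable here. Large ones could also fail, as did -3.72 for novel_mir454 and -3.53 for novel_mir672 in KD553 against Lv3NC (limma adjusted p = 0.524 each). The lack of calls thus does not show that large differences are absent.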
